A study of Mus musculus with 12 samples.

Results

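The cytosolic ribosomal protein genes of the mouse heart were examined after cisplatin, with and without the gene for STING. They were chosen by symbol alone: large subunit (Rpl), small subunit (Rps) and stalk (Rplp) genes with a number, Rpsa and Fau. The rule found 90 of the 55885 genes listed, 43 of the large subunit, 34 of the small subunit, 3 of the stalk and 10 with the name of a paralog or a retrocopy. By GENCODE, 84 were protein coding and 6 were pseudogenes (Rps3a2, Rps3a3 and Rps12l1 among them). Rpl39l, Rpl6l, Rpl10l and Rpl32l were too low to test, which left 86 genes.

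Each cytosolic ribosome carries one copy of nearly every one of these proteins around the ribosomal RNAs, so cells keep their production in step. Their mRNAs are short and abundant and begin with a 5′ terminal oligopyrimidine (TOP) tract, a run of C and U at the cap through which mTOR signaling and LARP1 set how strongly they are translated. Free ribosomal proteins such as RPL5 and RPL11 bind MDM2 and are known to stabilize p53 when ribosome assembly is disturbed. Cisplatin (CDDP) crosslinks DNA, and STING is the adaptor that signals the presence of DNA in the cytosol.

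RNA was sequenced from 12 heart samples, called hearts here, 3 in each of 4 groups, of male C57BL/6 mice (C57BL/6J in the methods) that were 8 weeks old at the start. Saline mice were wild type without cisplatin (the labels say untreated), and CDDP mice were wild type given cisplatin at 6 mg/kg into the peritoneum on days 1, 8 and 15. STING-/- mice were Tmem173-/- and were not given cisplatin, and STING-/-+CDDP mice had the same genotype and the same 3 injections. The methods name different suppliers for the wild-type and the STING-/- mice, so genotype and origin cannot be told apart. All hearts were taken on day 22. Levels are given as TPM, in which the reads of a gene are corrected for its length and all hearts are brought to an equal total, so levels can be compared between genes, while the number of reads behind a value is unknown. The 3 values given for a group follow the numbers of its hearts.

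Sting1 (formerly Tmem173) was at 12.3, 6.59 and 6.50 TPM in Saline and at 22.1, 5.62 and 8.81 in CDDP. Sting1 was at 3.82, 5.96 and 2.87 TPM in STING-/- and at 4.26, 4.67 and 3.37 in the STING-/-+CDDP hearts, lower than in Saline but not absent, and one STING-/- heart lay above a CDDP heart. Which part of the gene was deleted is not given in the sources used here, and the group names below follow the labels. Cdkn1a, the p53 target that encodes p21, was at 32.8, 48.8 and 65.8 TPM in Saline and at 220, 196 and 232 in CDDP. Cdkn1a was at 42.3, 63.3 and 46.3 TPM in STING-/- and at 172, 216 and 124 in the STING-/-+CDDP hearts, so every heart given cisplatin stood above every heart without it in both genotypes (2.17 and 1.72 on the log2 scale, adjusted p = 8.02e-04 and 0.0156 by limma). Saline heart 2 stood apart by its atrial markers (Nppa, Myl7, Myl4 and Sln), which summed to 38939 TPM there and to 310 and 339 in Saline hearts 1 and 3. CDDP heart 1 stood apart by its neutrophil markers, at 1088 TPM against 42.9 and 26.1 in the other CDDP hearts. Cardiomyocyte markers were abundant in every heart, from 15762 TPM in CDDP heart 1 to 34932 in STING-/- heart 3.

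The start of the transcript is where these genes carry their shared signal, so 5 promoters are shown from RefSeq (build GRCm38.p6). Each line runs 5′ to 3′ from 30 bases before the annotated start to 20 bases from it on, with the run of 5 or more pyrimidines at or within 5 bases of the start in capitals. Rps27 was the most abundant member, Rps6 is the target of S6 kinase, Rpl12 and Rpl22l1 were among the largest rises, and Rpl3l is the muscle paralog, which passed in none of the 4 group comparisons.
Rps27 (chr3:90213629-90213678, minus strand): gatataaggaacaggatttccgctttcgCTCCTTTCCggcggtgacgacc
Rps6 (chr4:86857348-86857397, minus strand): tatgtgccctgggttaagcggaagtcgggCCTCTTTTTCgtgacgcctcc
Rpl12 (chr2:32961682-32961731, plus strand): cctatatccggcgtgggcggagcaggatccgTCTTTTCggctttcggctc
Rpl22l1 (chr3:28805478-28805527, plus strand): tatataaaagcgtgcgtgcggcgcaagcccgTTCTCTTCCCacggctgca
Rpl3l (chr17:24727796-24727845, plus strand): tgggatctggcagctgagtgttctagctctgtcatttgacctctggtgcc
Rps27, Rps6, Rpl12 and Rpl22l1 held such a run and Rpl3l did not, at the first of its 2 annotated starts. Rps19 and Rps13, not shown, held no such run at any annotated start, although they rose by 0.94 and 0.78 in CDDP against Saline. RefSeq promoters matched 65 of the 90 genes, with 77 starts. A C at the annotated start followed by at least 4 pyrimidines was found at 19.5% of these starts, against 2.51% of the 32851 starts of all genes and 0 of 75 starts of mitochondrial ribosomal protein genes. A run of 7 pyrimidines within 20 bases of the start, which tolerates an imprecise start, was found at 54.5% of the members' starts, 24.8% of all starts and 22.7% of the mitochondrial ribosomal ones. The letters CGGAAG, searched on both strands over the 300 bases from 250 before to 50 after the start, were found at 58.4% of the members' starts, 16.9% of all and 53.3% of the mitochondrial ribosomal ones. A match describes letters and not a site that is used. Of the 14 tested members with a C tract at the start, 5 rose with cisplatin in wild-type mice (median log2 difference 0.40), and of the 48 matched members without one, 27 did (median 0.47). With the run of 7 pyrimidines the order was the other way, 22 of 38 with it (median 0.46) and 10 of 24 without it (median 0.40), while 8.52% of all tested genes rose.

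Ribosomal protein mRNAs made up a large share of the cardiac mRNA pool. Of the 90 genes, 77 had a mean of at least 100 TPM over the 12 hearts, and 11 were among the 100 most abundant genes of all. The tested members had a median mean level of 568 TPM and a median length of 794 bases, against 8.08 TPM and 2662 bases over the 13815 tested genes. The highest mean levels were those of Rps27 (2268 TPM), the stalk gene Rplp1 (2029), Rps15 (1614), Rpl36 (1553) and Rps24 (1492). Rpl12 (18.5 TPM), Rpl5 (60.5) and Rpl27a (120) had the lowest levels of the large subunit genes. For these 3, a copy with a Gm name held most of the shared TPM: Gm10275 95.3% to 98.7% of that shared with Rpl12, Gm15500 88.8% to 91.4% with Rpl5 and Gm7536 89.7% to 91.0% with Rpl27a.

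The summed level of the family was highest in the CDDP hearts. The 90 genes summed to 48215, 56691 and 44555 TPM in Saline and to 69722, 62912 and 72395 in the CDDP hearts. They summed to 45645, 51626 and 40962 TPM in STING-/- and to 54472, 54828 and 45962 in STING-/-+CDDP. Each heart of the CDDP group thus stood above every other heart, while the other 3 groups overlapped. The mean was 49820 ± 6225 TPM (SD, n = 3) in Saline and 68343 ± 4889 in CDDP, 1.37 times as high, and 51754 ± 5019 in STING-/-+CDDP, 0.757 times the CDDP mean. The ratio of CDDP to Saline was 1.37 for the large subunit with the stalk and 1.37 for the small subunit. In whole hearts, fewer cells of a type and less RNA per cell cannot be told apart, and TPM shows shares of the pool, not amounts per cell. As a share of the nuclear transcripts, leaving out mitochondrially encoded ones, the family held 6.40% ± 0.573 in Saline, 8.66% ± 0.589 in CDDP, 6.06% ± 0.612 in STING-/- and 6.90% ± 0.474 in STING-/-+CDDP. Mitochondrially encoded transcripts held 18.8% to 23.3% of the TPM in CDDP and 23.6% to 27.6% in STING-/-+CDDP, without overlap.

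**Figure D1:**
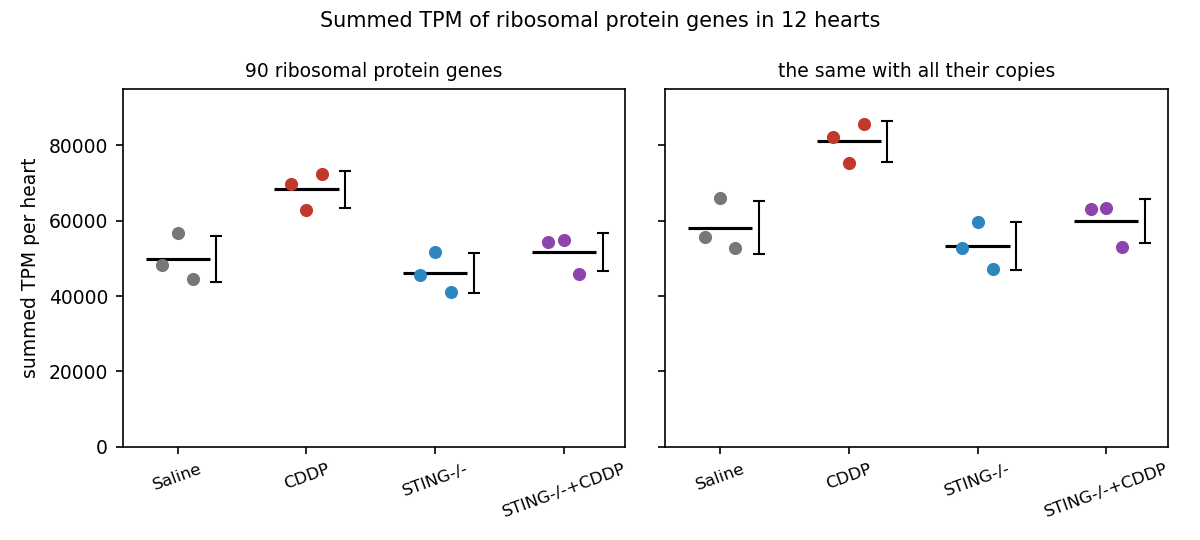
Summed TPM of the 90 ribosomal protein genes (left) and of the same genes with all their copies (right) in each of the 12 hearts, with the group mean as a line and the SD (n = 3) as a bar beside it. The 3 CDDP hearts sit between 62912 and 72395 TPM on the left, above the other 9 hearts.

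Single genes were compared as log2(TPM + 1) with limma over all 13815 tested genes, two-sided, with Benjamini-Hochberg adjusted p-values and a threshold of 0.05. On this scale a fold change is slightly understated for genes of low TPM. In CDDP against Saline, 47 of the 86 members rose and 0 fell, while over all tested genes 8.52% rose and 10.4% fell. The median member difference was 0.47 (1.38-fold), with quartiles of 0.38 and 0.58, against -0.0032 over all tested genes. The large subunit had 26 of 43 genes higher, the small subunit 17 of 34, the stalk 3 of 3 and the paralogs 1 of 6. The 3 CDDP hearts lay above the 3 Saline hearts for 70 of the 86 members, against 14.9% of all tested genes. For 67 of the 86 members, every CDDP heart was also above all 9 other hearts, which held for 8.15% of all tested genes.

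**Figure D2:**
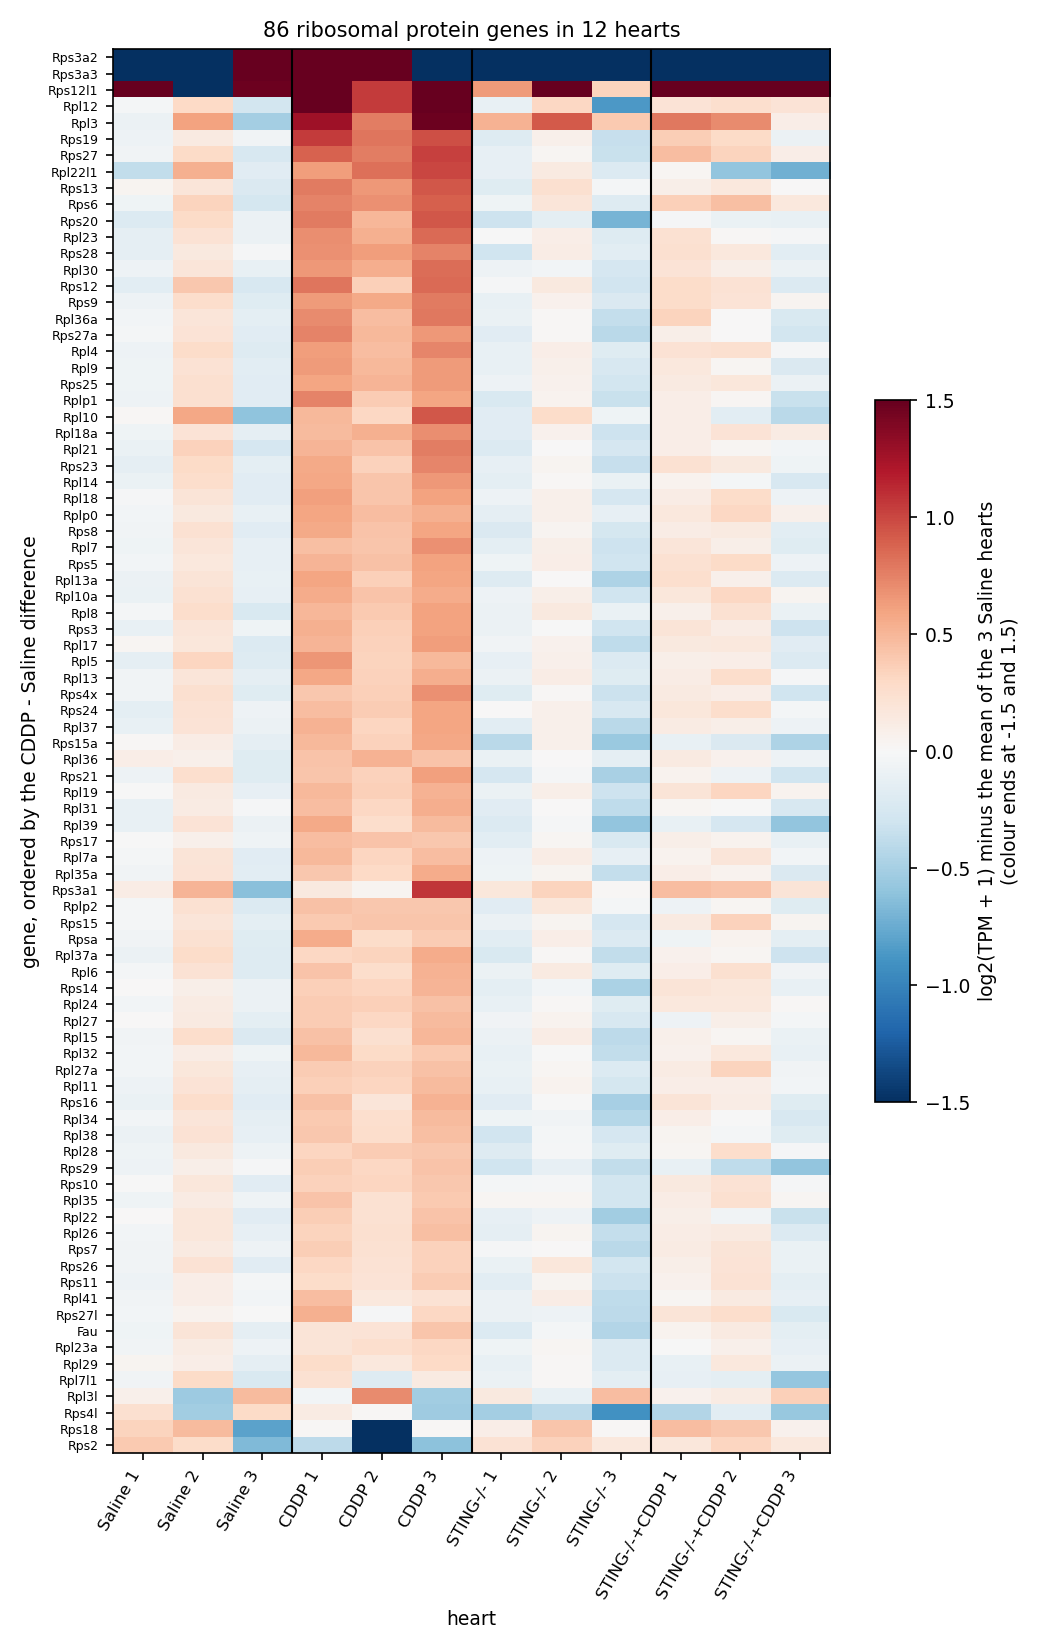
log2(TPM + 1) of the 86 tested genes (rows) in the 12 hearts (columns), shown as the difference from the mean of the 3 Saline hearts and ordered by the CDDP minus Saline difference. The 3 CDDP columns are higher for most genes, and the rows at both ends are members that are pseudogenes or genes with abundant listed copies.

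The count of 47 depended on which hearts entered. It was 11 (12.8% of members) without Saline heart 1, 11 without Saline heart 3, 27 without CDDP heart 1 and 17 (19.8%) without CDDP heart 3, where 3.9%, 4.18%, 8.61% and 4.8% of all tested genes rose. When only these 2 groups were fitted, 6 members rose (6.98%), against 2.36% of all tested genes that rose and 5.95% called in either direction. It was 60 without Saline heart 2, the heart rich in atrial transcripts, and 42 without CDDP heart 2, against 10.4% and 7.84% of all tested genes. In the 6 fits without a Saline or CDDP heart, 80 to 84 members had a positive difference, of 84 or 86 tested.

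Among the small subunit genes that passed, Rps19, Rps27 and Rps13 had the largest listed rises. Rps19, which is mutated in Diamond-Blackfan anemia, was at 246, 285 and 249 TPM in Saline and at 538, 454 and 507 in the CDDP hearts. These groups did not overlap, and the difference was 0.94 on the log2 scale (SE 0.15, adjusted p = 0.00252 by limma). Rps27, which encodes a small zinc finger protein, was at 1742, 2215 and 1532 TPM in Saline and 3330, 3068 and 3682 in CDDP, a difference of 0.89 (SE 0.16, adjusted p = 0.00382 by limma). The lowest CDDP heart was above the highest Saline heart. Rps13 was at 207, 228 and 173 TPM in Saline and 345, 316 and 383 in CDDP, a difference of 0.78 (SE 0.14, adjusted p = 0.00462 by limma). Its pseudogenes Rps13-ps1 and Rps13-ps2 held 48.4% to 63.0% and 32.3% to 46.1% of the TPM they share with it, each taken with Rps13 alone, and summed with all copies the difference was 0.58 (adjusted p = 0.00713 by limma). Rps6, whose protein is phosphorylated by S6 kinase, was at 687, 908 and 600 TPM in Saline and 1206, 1157 and 1341 in CDDP. It rose by 0.77 (SE 0.16, adjusted p = 0.00792 by limma). Rps20 rose by 0.74 (adjusted p = 0.0160), and Rps27a, which encodes ubiquitin fused to a ribosomal protein, rose by 0.62 (adjusted p = 0.0167). Rps15 and Rps24 rose by 0.41 and 0.48. Among the alternative ways of processing, Rps15 did not pass in 11 of 26 (0.29 to 0.50) and Rps24 in 7 of 27 (0.34 to 0.59). Rps20 did not pass in 4 of 27 (0.63 to 0.88) and Rps27a in 3 of 26 (0.50 to 0.73). Rpsa, the laminin receptor homolog, and Fau, a ubiquitin-like fusion, were higher by 0.40 and 0.27 and did not pass (adjusted p = 0.0612 and 0.20 by limma). Among the alternatives, Rpsa passed in 2 of 26 and Fau in 0 of 27.

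The stalk proteins recruit elongation factors to the ribosome. Rplp0, their anchor, was at 822, 939 and 785 TPM in Saline and at 1278, 1169 and 1227 in the CDDP hearts, a rise of 0.53 (SE 0.11, adjusted p = 0.00912 by limma). Rplp1 and Rplp2, which form dimers on it, rose by 0.58 and 0.42 (adjusted p = 0.0312 and 0.0474 by limma). The CDDP and Saline hearts did not overlap for any of the 3. Among the alternative ways of processing, Rplp2 did not pass in 14 of 27, with differences of 0.27 to 0.53. Rplp1 did not pass in 6 of 27 (0.49 to 0.70) and Rplp0 in 1 of 26 (0.37 to 0.61).

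Among large subunit genes, Rpl12 and Rpl3 had the largest listed differences. Rpl12, which sits at the base of the stalk, was at 11.8, 15.1 and 9.77 TPM in Saline and at 45.2, 26.0 and 39.7 in the CDDP hearts, a difference of 1.51 (SE 0.28, adjusted p = 0.00528 by limma). Summed with all copies, Rpl12 went from 599, 731 and 500 TPM to 958, 847 and 930, a difference of 0.59 (adjusted p = 0.0235 by limma). Rpl3, which lies near the peptidyl transferase center, was at 164, 265 and 123 TPM in Saline and 424, 297 and 485 in CDDP, a difference of 1.17 (SE 0.29, adjusted p = 0.0177 by limma). Its pseudogene Rpl3-ps1 was at 104, 173 and 89.2 TPM in the Saline hearts, where it held up to 42.1% of the TPM shared with Rpl3, and was listed at 0 in the other 9 hearts. With all copies, Rpl3 was at 268, 438 and 212 TPM in Saline and 426, 297 and 485 in CDDP, the groups overlapped, and the difference was 0.43 (adjusted p = 0.309 by limma). Rpl36 and Rpl13a rose by 0.46 and 0.51. Among the alternative ways of processing, Rpl36 did not pass in 2 of 26 (0.37 to 0.51) and Rpl13a in 9 of 27 (0.40 to 0.61). Rpl5, Rpl11 and Rpl26 were higher by 0.49, 0.39 and 0.34 and did not pass (adjusted p = 0.0606, 0.0510 and 0.111 by limma). Rpl5 passed when summed with its copies (0.66, adjusted p = 0.0108 by limma). Among the alternative ways of processing, Rpl11 passed in 7 of 27, Rpl5 in 6 of 26 and Rpl26 in 1 of 26.

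Of the 6 paralogs and retrocopies tested, only Rpl22l1 passed. Rpl22l1, the paralog of Rpl22, was at 36.1, 68.3 and 41.7 TPM in Saline and at 72.8, 83.9 and 95.0 in the CDDP hearts. The groups did not overlap, and it rose by 0.82 (SE 0.25, adjusted p = 0.0400 by limma), while Rpl22 was higher by 0.34 and did not pass (adjusted p = 0.146). Among the alternative ways of processing, Rpl22l1 did not pass in 10 of 27, with differences of 0.63 to 1.09. Rpl3l, which replaces Rpl3 in part of the ribosomes of heart and skeletal muscle, was at 158, 102 and 207 TPM in Saline and 145, 245 and 104 in CDDP. It was at 165, 138 and 206 TPM in STING-/- and 157, 162 and 192 in STING-/-+CDDP, and all 4 groups overlapped. Its CDDP minus Saline difference was 0.05 (SE 0.31), whose sign turned without Saline heart 2 or without CDDP heart 2. Rps27l, Rpl7l1 and Rps4l differed by 0.28, 0.06 and -0.13 and did not pass. Rps12l1, a retrocopy, was at 0 in Saline heart 2 and at 10.7 to 56.9 TPM in the other 11 hearts.

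The level of a paralog relative to its main gene does not depend on how hearts are scaled. It was compared over 5 pairs and 4 comparisons, 20 exact permutation tests in all, in which 3 hearts against 3 cannot give a p under 0.10. Rps27l relative to Rps27 had a log2 ratio of -3.20 ± 0.235 (SD, n = 3) in Saline and -3.81 ± 0.237 in CDDP, without overlap (exact p = 0.10, adjusted p = 0.333 over the 20 tests). Rpl7l1 relative to Rpl7 was -4.37 ± 0.115 in Saline and -4.84 ± 0.209 in CDDP, also without overlap (exact p = 0.10). Rpl22l1 relative to Rpl22 was -2.54 ± 0.194 in CDDP and -3.37 ± 0.251 in STING-/-+CDDP without overlap (exact p = 0.10). The other 3 ratios without overlap differed by -0.52 for Rpl22l1 and -0.37 for Rpl7l1 in STING-/-+CDDP against STING-/- and by 0.39 for Rps27l in STING-/-+CDDP against CDDP (exact p = 0.10 and adjusted p = 0.333 for each). Rpl3l relative to Rpl3 was -0.23 ± 1.08 in Saline and -1.35 ± 0.988 in CDDP, with overlap (exact p = 0.20). The difference of -1.12 ran from -1.70 to -0.63 when 1 heart was left out. With the -ps pseudogenes summed into Rpl3 it was -0.38 (exact p = 0.70). None of the 20 passed after adjustment, which the size of the groups does not allow.

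Pseudogenes and other genes named as copies of members held part of the TPM of several genes, and their shares differed between hearts. Rps2 was listed at 1338, 1236 and 643 TPM in Saline and at 779, 39.4 and 668 in the CDDP hearts. Its pseudogene Rps2-ps10 was at 4.55, 5.59 and 708 TPM in Saline and 889, 1514 and 748 in CDDP, and at 4.08 to 5.83 TPM in the 6 hearts of STING-/- mice. Summed with all copies, Rps2 was at 1348, 1247 and 1356 TPM in Saline and 1676, 1569 and 1423 in CDDP. The listed difference of -1.89 (SE 0.85, adjusted p = 0.140 by limma) thereby became 0.24 (SE 0.10, adjusted p = 0.129), and the listed one ran from -2.64 to -0.50 when 1 heart was left out. Rps18 was listed at 796, 878 and 364 TPM in Saline and 643, 46.1 and 641 in CDDP, and at 798, 879 and 713 and then 1228, 1106 and 1219 with all copies. Its difference turned from -1.24 (adjusted p = 0.297) to 0.57 (adjusted p = 0.0185 by limma). Rps3a1 gave the same picture with Rps3a2 and Rps3a3, which were at 85.2 to 425 TPM in Saline heart 3, CDDP heart 1 and CDDP heart 2 and below 1 in the other 9. Alone it differed by 0.42 (adjusted p = 0.348), and summed with its copies it rose by 0.72 (SE 0.13, adjusted p = 0.00447 by limma). Which copy a read came from cannot be told from TPM.

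**Figure D3:**
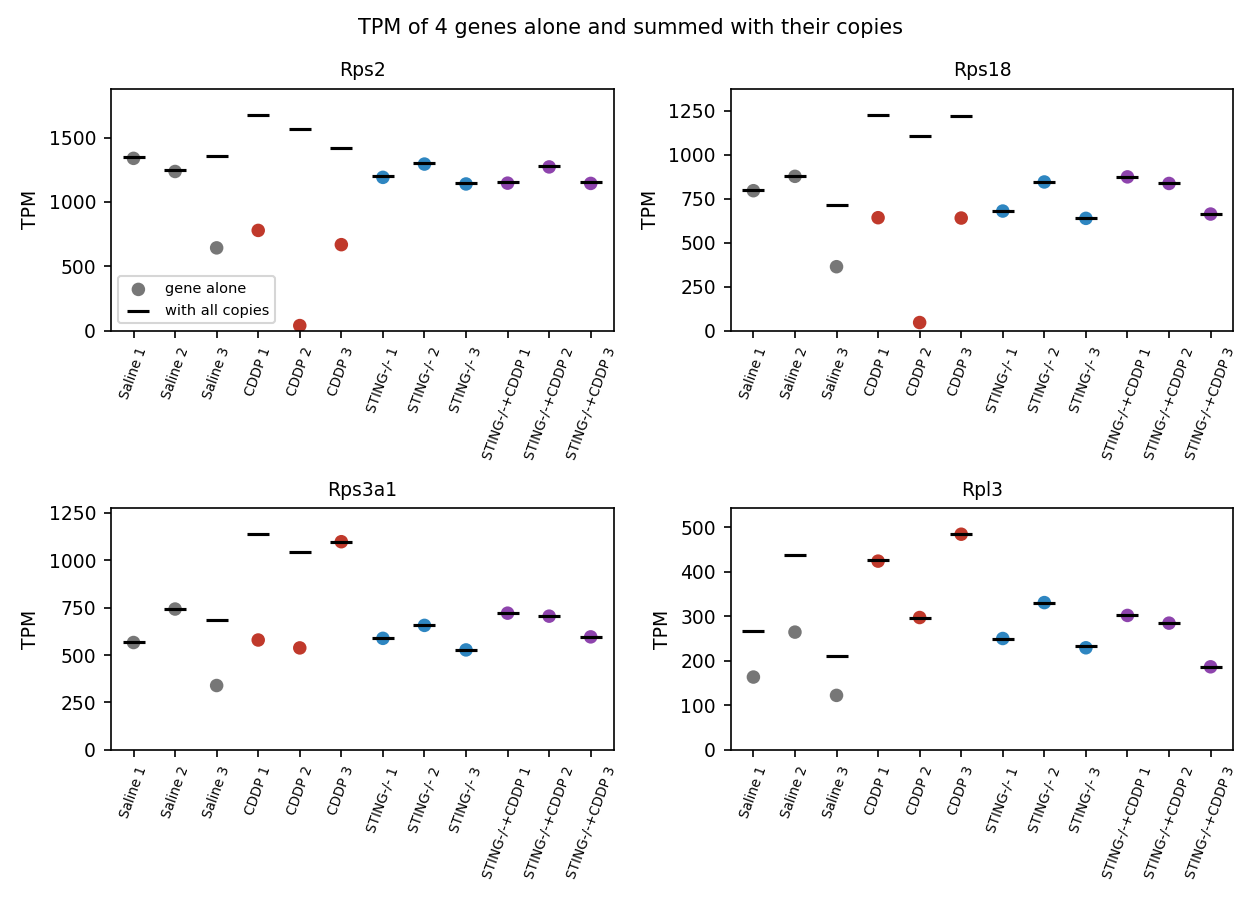
TPM of Rps2, Rps18, Rps3a1 and Rpl3 in the 12 hearts, as listed (points, colored by group) and summed with all copies (black dashes). In Saline heart 3 and the CDDP hearts the dashes for Rps2 and Rps18 lie far above the points, and for Rpl3 they do so in the Saline hearts alone.

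Shares of the other named copies are given as ranges over the 12 hearts. Rpl14-ps1 held 77.3% to 82.5% of the TPM shared with Rpl14, Rps23-ps1 71.5% to 76.9%, Rpl31-ps8 71.4% to 75%, Rpl10-ps3 58.9% to 70.5% and Rpl36a-ps2 57.8% to 65.6%. Rpl28-ps1 held 50.1% to 59.3%, Rpl15-ps3 45.0% to 54.1%, Rps16-ps2 39.7% to 47.6%, Rpl10a-ps1 29.2% to 34.1%, Rpl27-ps3 19.3% to 30.1% and Rps6-ps4 7.66% to 20.8%. Gm28900, named after its values were seen, held 21.05% of the TPM shared with Rpl21 in CDDP heart 1 and 64.2% in CDDP heart 3. Rpl21 rose alone (0.57, adjusted p = 0.0303 by limma) and did not pass when summed with all copies (0.43, SE 0.31, adjusted p = 0.359). Rps18-ps6, Rps18-ps5 and Rps18-ps3 reached 95.4%, 63.1% and 40% of the TPM shared with Rps18 in single hearts, and their lowest shares were 0.0734%, 0% and 0%. Over the 12 hearts, the family and all its copies summed to 58148 ± 7093 TPM (SD, n = 3) in Saline, 81059 ± 5384 in CDDP, 53256 ± 6290 in STING-/- and 59891 ± 5937 in STING-/-+CDDP. The ratio of CDDP to Saline, 1.39, was close to that of the members alone. With every member summed with its copies, 46 of 84 rose, against 8.47% of all tested genes. Among the 38 tested members without a -ps pseudogene of their name above 0, 20 rose, against 8.52%. These 38 still include Rpl12 and Rps3a1, which have copies of other names.

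The difference between the 2 cisplatin groups went the other way. In STING-/-+CDDP against CDDP, 5 of the 86 members fell and 0 rose, against 0.854% of all tested genes that fell and 0.362% that rose. The median member difference was -0.43 (0.740-fold), against -0.0947 over all tested genes, and with quantile normalization it was -0.26, against 0.0086. The 3 STING-/-+CDDP hearts lay below the 3 CDDP hearts for 73 of the 86 members, against 15.6% of all tested genes, and 67 members had an unadjusted p under 0.05 by limma, against 19.8% of all tested genes. This comparison uses the same CDDP hearts as that of CDDP with Saline, so the mirrored directions are not independent.

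The 5 genes that fell were Rps29, Rpl22l1, Rps19, Rps13 and Rpl30 (Rpl30 was named after its values were seen). Rps29, a small zinc-binding protein of the head of the small subunit, was at 1295, 1240 and 1339 TPM in CDDP and at 921, 768 and 662 in the STING-/-+CDDP hearts. It fell by 0.73 on the log2 scale (SE 0.13, adjusted p = 0.0266 by limma), although it had not passed in CDDP against Saline (0.37, adjusted p = 0.0655). In CDDP against Saline, Rps29 passed in 3 of 27 alternative ways of processing. Rpl22l1 was at 47.7, 30.8 and 28.1 TPM in STING-/-+CDDP and fell by 1.25 (SE 0.25, adjusted p = 0.0424). Rps19 was at 337, 317 and 244 TPM there and fell by 0.75 (SE 0.15, adjusted p = 0.0450). Rps13 fell by 0.70 (adjusted p = 0.0452) and, summed with its copies, differed by -0.38 without passing (adjusted p = 0.114). Rpl30 fell by 0.61 (adjusted p = 0.0495). Rps27, at 2500, 2271 and 1940 TPM in STING-/-+CDDP, did not pass (-0.59, adjusted p = 0.0847), nor did Rps20 or Rpl12 (-0.81 and -1.29, adjusted p = 0.0520 for each). With all copies, Rpl12 differed by -0.49 (adjusted p = 0.131 by limma). Summed with its copies, Rps3a1 fell by 0.70 (adjusted p = 0.0352). The count of 5 was 0 without CDDP heart 1, CDDP heart 3, STING-/-+CDDP heart 2 or STING-/-+CDDP heart 3. In these fits 0.307%, 0.161%, 0.0436% and 0.0435% of all tested genes fell. The count was 0 with the replicate number as a block (0.333% of all) and 15 with scaling by the median of ratios (2.82%).

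Without cisplatin, no member passed between the genotypes. In STING-/- against Saline, limma called 0 of 86 members and 0.0724% of all tested genes. An unadjusted p under 0.05 was found for 1 member, against 3.69% of all tested genes. The median member difference was -0.12, against 0.0017 over all tested genes. Of the members, 78 of 86 differences were negative, against 6864 of the 13815 tested genes. This median was -0.0317 without Saline heart 2, -0.0328 without STING-/- heart 3 and -0.19 without STING-/- heart 2. The groups did not overlap for 2 members, Rps29 and Rps27l, both lower in STING-/-, against 4.88% of all tested genes that were lower without overlap and 7.64% in either direction. Rps4l (-0.60, SE 0.25, unadjusted p = 0.0335 by limma) and Rps20 (-0.39, SE 0.18, unadjusted p = 0.0516 by limma) had the smallest p-values.

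In STING-/-+CDDP against STING-/-, limma called 0 of 86 members and 0.934% of all tested genes. An unadjusted p under 0.05 was found for 6 members (6.98%), against 13.5% of all tested genes. The members' median was 0.16 and that of all tested genes -0.11 (0.28 and -0.0062 with scaling by the median of ratios). Of the member differences, 77 of 86 were positive, against 4866 of the 13815 tested genes. The members' median was 0.077 without STING-/- heart 3, 0.25 without STING-/- heart 2 and 0.25 without STING-/-+CDDP heart 3. The groups did not overlap for 9 members, all of them higher in STING-/-+CDDP (10.5%), against 7.28% of all tested genes that were higher without overlap and 24.2% in either direction. Rps27 was at 1657, 1847 and 1437 TPM in the STING-/- hearts, and the STING-/-+CDDP hearts given above were all higher (0.44, SE 0.16, unadjusted p = 0.0162, adjusted p = 0.235 by limma). Rps19 was at 227, 273 and 204 TPM in the STING-/- hearts, and the groups overlapped (0.35, SE 0.15, unadjusted p = 0.0412, adjusted p = 0.343 by limma). Of the 47 members that rose in CDDP against Saline, 44 had a positive difference here, a share near that of all members (77 of 86).

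Whether the change with cisplatin differed between the genotypes was tested as an interaction, which is the change in STING-/- mice minus the change in wild-type mice. It passed for 0 of the 86 members, and over all tested genes for 0.00724%, which is 1 gene, the pseudogene Rpl3-ps1. The members' median was -0.32, against -0.10 over all tested genes. Of the members, 83 of 86 were negative, against 8264 of the 13815 tested genes. With scaling by the median of ratios the members' median was -0.20, against -0.0028 over all tested genes. With quantile normalization it was also -0.20, against 0.0139. An unadjusted p under 0.05 was found for 14 members (16.3%), against 11.7% of all tested genes. The smallest p-values belonged to Rps13 (-0.71, SE 0.20, unadjusted p = 0.00451, adjusted p = 0.321 by limma) and Rpl22l1 (-1.18, SE 0.35, unadjusted p = 0.00582, adjusted p = 0.321 by limma). The smaller medians in STING-/- hearts thus did not pass for any single member.

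**Figure D4:**
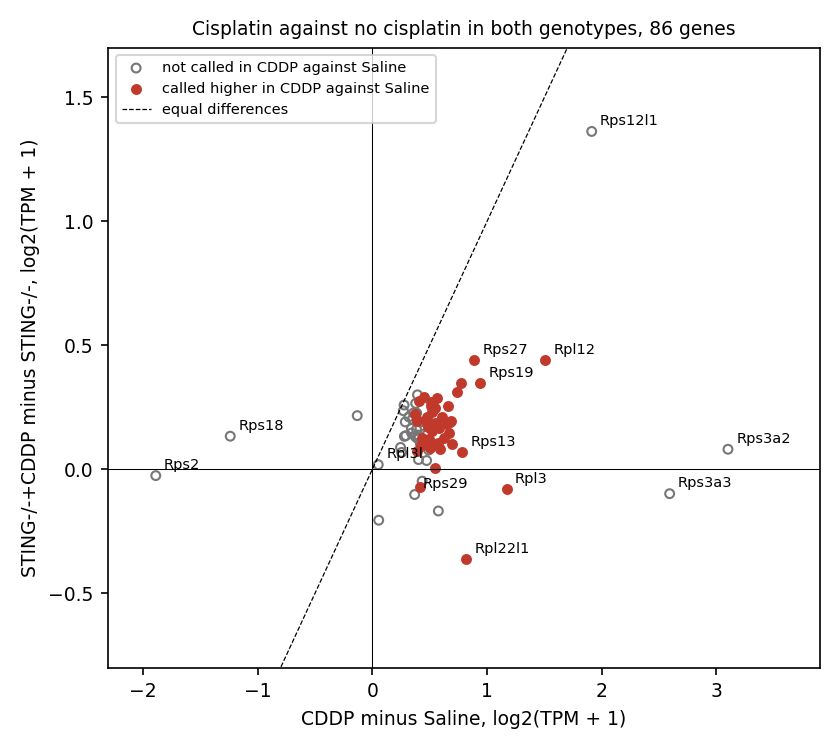
Difference in log2(TPM + 1) with cisplatin in wild-type mice (CDDP minus Saline, horizontal axis) and in STING-/- mice (STING-/-+CDDP minus STING-/-, vertical axis) for the 86 tested genes, with filled points for the 47 called in wild-type mice. Most points lie below the dashed line of equal differences, and Rps2, Rps18, Rps3a2 and Rps3a3, whose TPM alternated with that of copies, lie far from the rest.

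Within a group, many members shared their highest or lowest heart, and which heart it was changed with scaling. Saline heart 2 was the highest of its group for 79 of the 86 members and for 62.1% of all tested genes, and Saline heart 3 was the lowest for 67 members and 58.5% of all. CDDP heart 3 was the highest for 57 members and 61.6% of all tested genes and CDDP heart 1 for 26 members and 15.8% of all, while CDDP heart 2 was the lowest for 73 members and 34.6% of all. STING-/- heart 2 was the highest for 84 members and 59.3% of all, and STING-/-+CDDP heart 3 the lowest for 79 members and 70.8% of all. The highest STING-/-+CDDP heart was heart 1 for 45 members and heart 2 for 39 (46.4% and 44.3% of all). With scaling by the median of ratios, CDDP heart 1 was the highest of its group for 82 members and CDDP heart 3 the lowest for 67, against 36.4% and 31.9% of all tested genes, and Saline heart 2 was the highest for 33 members and 36% of all. Over the 4 groups, as listed, the mean was highest in CDDP for 81 of the 86 members and lowest in STING-/- for 73.

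Other genes of the translation machinery were counted from lists chosen with earlier results of these data known. Of 49 initiation, elongation and release factors, 22 rose and 1, the cap-binding Eif4e, fell in CDDP against Saline (median 0.50), where 8.52% of all tested genes rose and 10.4% fell, the background for each list below. Eif1, which governs start codon choice, was at 317, 451 and 362 TPM in Saline and 767, 830 and 940 in CDDP, a rise of 1.18 (SE 0.15, adjusted p = 8.69e-04 by limma). It also fell in STING-/-+CDDP against CDDP (-0.75, adjusted p = 0.0420 by limma). Eif4a2, an RNA helicase, and Eif3b, a scaffold of initiation, rose by 0.97 and 0.86. Of 49 ribosome biogenesis genes, 19 rose and 0 fell (median 0.50), with Sbds, which releases EIF6 from the large subunit, up by 1.16, nucleolin (Ncl) by 0.98 and nucleophosmin (Npm1) by 0.91. Of 19 other genes known for TOP mRNAs, 10 of them also among the factors, 8 rose and 0 fell (median 0.44), Nap1l1, a histone chaperone, by 0.91 and Hnrnpa1, a splicing factor, by 0.81.

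Noncoding hosts of small nucleolar RNAs carry TOP tracts but are translated little. All 5 of those listed (Gas5, Snhg1, Snhg5, Snhg6 and Snhg8) rose in CDDP against Saline, with a median of 1.63. Gas5 was at 61.7, 112 and 71.5 TPM in Saline and at 290, 170 and 370 in the CDDP hearts, a rise of 1.72 (SE 0.31, adjusted p = 0.00428 by limma). Snhg5 and Snhg1 rose by 1.69 and 1.63. In STING-/-+CDDP, Gas5 was at 145, 96.6 and 79.7 TPM (-1.34 against CDDP, adjusted p = 0.0581 by limma), and Snhg6 fell (-1.24, adjusted p = 0.0216 by limma).

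Of 20 regulators of ribosomal protein production in the mTOR, MYC and p53 pathways, 4 rose and 2 fell (against 8.52% and 10.4% of all tested genes, so that the share that fell was near the background). Cdkn1a rose by 2.17, Sesn2, a p53 and stress target that restrains mTORC1, by 1.25, and Myc, an activator of ribosomal genes, by 1.18 (adjusted p = 8.02e-04, 0.00658 and 0.00497 by limma). Myc remained low, at 2.23, 3.46 and 2.35 TPM in Saline and 8.10, 5.82 and 7.96 in CDDP. Rptor, a subunit of mTORC1, fell by 0.97 and Rps6kb2, an S6 kinase, by 0.60, and Eif4ebp1 rose by 0.61. Mtor and Larp1 differed by -0.04 and 0.07 and did not pass.

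Mitochondrial ribosomal proteins, which are encoded in the nucleus and build a separate ribosome, went the other way. Of 78, 24 fell and 1, Mrps18b, rose in CDDP against Saline, with a median of -0.24, against 10.4% of all tested genes that fell and 8.52% that rose. Mrpl12 was at 181, 153 and 180 TPM in Saline and 84.7, 91.9 and 85.3 in CDDP, a difference of -0.96 (SE 0.12, adjusted p = 8.02e-04 by limma). Mrpl34 and Mrpl19 fell by 1.14 and 1.02. Of 82 nuclear genes of the respiratory chain and ATP synthase, a list added after the values were seen, 16 fell and 1, Cox6b2, rose (median -0.18), against the same background. The 244 other tested genes under 1000 bases with a mean of at least 100 TPM, leaving out copies of the members, had a median of -0.01, with 29 higher and 37 lower (11.9% and 15.2%, against 8.52% and 10.4%).

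**Figure D5:**
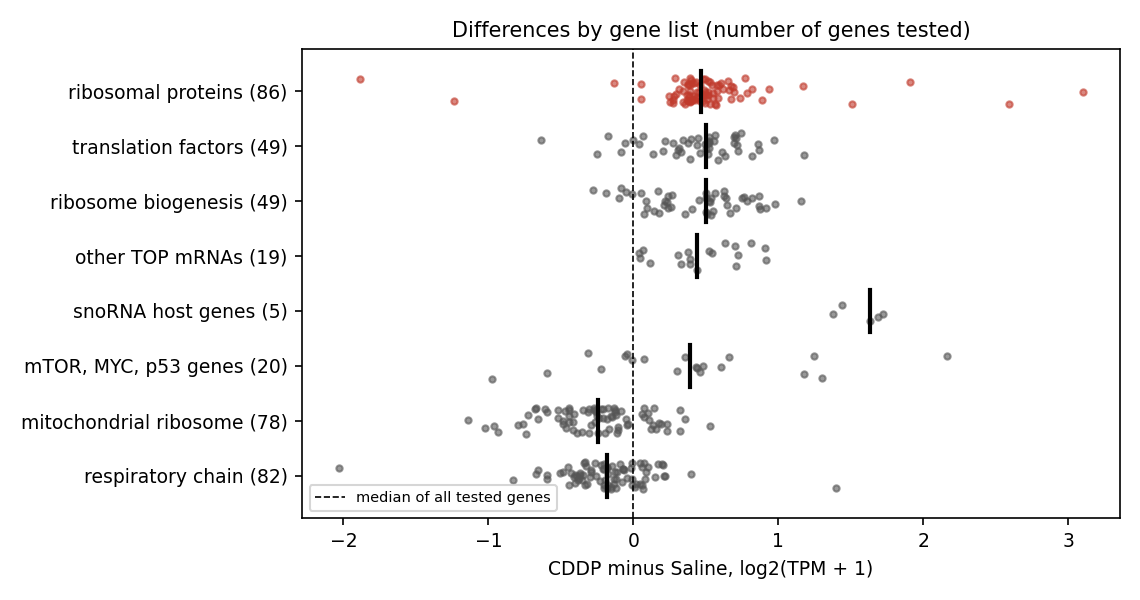
CDDP minus Saline difference in log2(TPM + 1) of each tested gene (points) in 8 gene lists, with the median of each list as a black bar and that of all tested genes as a dashed line. The ribosomal protein, translation factor, biogenesis and TOP lists lie to the right of the line, and the mitochondrial ribosome and respiratory chain lists to the left.

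Markers of other cells also differed between CDDP and Saline, and their part in the result was not tested. All 5 erythroid markers fell, from a sum of 6815, 4146 and 9317 TPM in the Saline hearts to 1271, 141 and 41.9 in the CDDP hearts, with Hbb-bs as the most abundant. They were at 1266, 1465 and 264 TPM in STING-/- and 101, 81.9 and 311 in STING-/-+CDDP. Of 5 macrophage markers 4 fell, from 395, 493 and 390 TPM to 112, 231 and 209, with C1qa as the most abundant, and they were at 532, 445 and 351 TPM in STING-/- and 247, 302 and 156 in STING-/-+CDDP. Of 5 endothelial markers 4 fell, from 635, 485 and 578 TPM to 340, 377 and 420, with Pecam1 as the most abundant, and they were at 486, 483 and 337 TPM in STING-/- and 479, 526 and 357 in STING-/-+CDDP. Of 5 fibroblast markers 3 fell, while their sum, mostly Dcn, went from 706, 1736 and 749 to 965, 1158 and 2064 TPM. The atrial sum was 3793, 854 and 14621 TPM in the CDDP hearts, 2994, 12835 and 8861 in STING-/- and 9025, 902 and 331 in STING-/-+CDDP, so it did not separate the groups. Of 6 cardiomyocyte markers Tnnt2 rose and Actc1, the cardiac actin, fell (0.56 and -3.55, adjusted p = 0.0137 and 0.00181 by limma). Of 3 tested fat markers Cidea rose, and no neutrophil, atrial, smooth muscle or skeletal muscle marker passed. The lymphocyte markers summed to at most 4.15 TPM in any heart. None of the listed markers was at 0 in every heart.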

How the data were processed

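RNA-seq of 12 mouse hearts, 3 per group, was analysed from the TPM per gene that the authors deposited, with gene lengths. The submitters' processing notes name fastp, HISAT, RSEM and GRCm38.p5; versions are not given in the sources used here. RSEM divides reads that match several copies by estimation, which bears on genes with near-identical copies. TPM keeps no depth, so no counting interval could be given. The sources used here do not say that the 3 samples of a group are separate animals, so p-values measure the spread between these samples, which may be technical. The authors' group means and functional annotation columns were not used.

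Genes that reached a TPM of 1 in 3 or more hearts (13815) were fitted as log2(TPM + 1) with limma 3.58.1 in R 4.3.3 (eBayes with a trend, 1 coefficient per group), two-sided, with Benjamini-Hochberg adjustment over all of them and a threshold of 0.05; the procedure was tested on simulated data. Positions came from GENCODE M21 (GRCm38), with identifiers matched for all 90 members. Copies are -ps pseudogenes, rt copies and Gm genes that the deposited protein names assign to a member, and Rps3a2 and Rps3a3 were added to Rps3a1. The members and lists were chosen with earlier results of these data known. Named were a list of well-known members, paralog pairs, the 5 highest, the largest passed changes per comparison (or the 2 smallest p-values), 3 genes per other list, and pseudogenes holding over 20% of shared TPM in a heart; Rps3a1 with its copies, Rpl27a, Rpl30, Rps12l1 and the untested members, the Gm copies and further list members of small counts were named after their values were seen. Alternatives were another pseudocount, filters, scalings, variance models, arrayWeights, a replicate block, leaving out each heart, and summing copies; summing all copies and leaving them out of the denominator were chosen after seeing the data. Ratios were compared with SciPy 1.17.1.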

Additional observations from a re-analysis of the deposited data

How the results depend on the processing

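The median difference of the members stayed positive in CDDP against Saline (0.29 to 0.56) and negative in STING-/-+CDDP against CDDP (-0.49 to -0.26) in all 27 alternatives run for each; in STING-/-+CDDP against STING-/- it ran from 0.077 to 0.28. The number of members called in CDDP against Saline, 47, was 27 without a filter, where 3.33% of all tested genes rose. It was 6 when only the groups compared were fitted (2.36% of all) and 30 without a trend in eBayes (8.14%). Among members without a -ps pseudogene of their name above 0 it was 20 of 38 (8.52%). It was 63 with the median of ratios and 60 without mitochondrially encoded genes (13.5% and 9.98% of all). Leaving out 1 heart gave 11 to 60, and 3.9% to 10.4% of all tested genes rose in these fits. With arrayWeights 51 rose (10.6% of all) and 1, Rps2 as listed, fell. In STING-/-+CDDP against CDDP, the count of 5 (0.854% of all fell) was 0 without a filter or with only the groups compared (0.0253% and 0.224% of all). It was 13 with a filter at TPM 5 (1.92%), 15 with the median of ratios (2.82%) and 11 without mitochondrially encoded genes (1.22%). It was 11 without the members and their pseudogenes or all copies in the denominator (1.16% each) and 12 with quantile normalization (2.58%). It was 2 without a trend (0.796%), 2 with arrayWeights (0.775%) and 3 with -ps pseudogenes summed (0.762%). Among members without a -ps pseudogene of their name above 0 it was 2 of 38. Leaving out 1 heart gave 0 to 11 members, and 0.0435% to 1.82% of all tested genes fell in these fits. In STING-/-+CDDP against STING-/- the count was 1 with the median of ratios, 1 with arrayWeights and 0 otherwise. With the median of ratios and with arrayWeights, 1.75% and 4.44% of all tested genes were called in either direction. For STING-/- against Saline and the interaction the count of members was 0 throughout. The cause of these changes was not tested.

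With the replicate number as a block, 39 members rose in CDDP against Saline (6.91% of all) and 0 fell in STING-/-+CDDP against CDDP, and the other counts of members were unchanged at 0. Over all tested genes, deviations of same-numbered hearts from their group means had correlations from -0.33 to 0.26. With 3 hearts per group, these cannot decide whether the numbers pair the hearts.

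In CDDP against Saline, the sign turned for Rps18 summed with -ps pseudogenes (0.57) or all copies (0.57), for Rps2 with either sum (0.24 each) and for Rpl3l with quantile normalization (-0.034). Leaving out 1 heart gave -1.87 to 0.018 for Rps18, -0.28 to 0.34 for Rpl3l, -0.060 to 0.20 for Rpl7l1, -0.39 to 0.070 for Rps4l and 0.15 to 0.42 for Rps27l, with the sign turning without CDDP heart 2 for Rps18, without Saline heart 2 (-0.22) or CDDP heart 2 for Rpl3l, without Saline heart 3 or CDDP heart 1 (-0.028) for Rpl7l1, and without Saline heart 3 (0.011) or CDDP heart 3 for Rps4l. The log2 ratio of Rpl3l to Rpl3 in STING-/- against Saline, -0.45, was 0.29 with Rpl3-ps1 summed and -1.02 to 0.044 without 1 heart; in STING-/-+CDDP against STING-/-, 0.10, it ran from -0.21 to 0.36. TPM without read counts limits what can be said of low members and of genes with listed copies.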
